A study of Macaca mulatta with 11 samples.

Results

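KIT, the cell surface receptor tyrosine kinase for KIT ligand, was followed in rhesus monkey cumulus cells on 11 Affymetrix arrays. All probe sets annotated with the symbol KIT were taken, which gave 1 probe set (MmugDNA.20574.1.S1_at, gene identifier 696759) among 52766 tested. KIT is thus 1 of the 14132 genes that carry a single symbol on this array. The current RefSeq assembly T2T-MMU8v2.0 places it on chromosome 5 between KDR and PDGFRA. With 1 probe set, transcript variants of KIT could not be told apart and no other KIT probe set was there to check it.

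Cumulus cells are granulosa-derived cells packed around the egg inside the follicle, and they form a complex with it. In IVM samples (n = 3) the complexes had been matured in culture after follicle-stimulating hormone (FSH) treatment of the animal. In VVM samples (n = 4) they had been matured in the animal by FSH followed by human chorionic gonadotropin (hCG). In PM samples (n = 4) they were immature and had been exposed to FSH alone. All 3 groups therefore had FSH stimulation. The labels give no animal ages, no length of culture, no number of animals per sample, and do not say whether each sample had its own animal. P-values thus reflect variation among the arrayed samples, which may be technical. RNA was amplified before hybridization, and levels are RMA intensities, given on the log2 scale unless stated.

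KIT binds its ligand (stem cell factor, the product of KITLG) as a dimer and then signals through phosphatidylinositol 3-kinase (PI3K), RAS and the MAP kinases, SRC family kinases and STAT factors. In the mammalian ovary, granulosa cells are best known as the source of the ligand, while the receptor is best known from the oocyte and from theca cells. Outside the ovary KIT marks mast cells and blood progenitors.

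Array medians lay between 5.34 and 5.53 on the log2 scale. Arrays of the same group correlated at 0.974 to 0.987 across probe sets and arrays of different groups at 0.909 to 0.962. Of 18 cumulus and granulosa markers, 16 were named on the array. Of these, 14 were above the array median on all IVM arrays, 15 on all VVM arrays and 12 on all PM arrays. By mean level, all 16 were above the array median, but so were 10275 of all 14132 genes. The number of all genes above it on every array of a group was not analysed here. These counts alone therefore do not show cell identity. PTX3, a matrix gene of cumulus expansion, was at 2.63 to 2.76 in PM. Of the other 2, FOXL2 and FSHR, no level was analysed here. Libraries that stood apart were PM 1, with high oocyte transcripts, and VVM 2 and VVM 3, with high leukocyte transcripts. The values that touch KIT are given with the markers.

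KIT was high in the 4 VVM samples and low in the others. Its level was 6.18, 4.01 and 4.50 (log2 intensity) in IVM 1 to IVM 3. In VVM 1 to VVM 4 it was 10.23, 8.35, 10.28 and 8.78. In PM 1 to PM 4 it was 6.59, 5.35, 6.50 and 5.53. The lowest VVM array stood 2.17 above the highest IVM array and 1.76 above the highest PM array, whereas IVM and PM overlapped. In samples of pooled cells, a change in the number of cells of a type and a change in RNA per cell cannot be told apart.

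On the linear scale of the deposited intensities, KIT was at 72.5, 16.1 and 22.7 in the IVM samples, against 1202, 326, 1241 and 440.1 in the VVM samples and 96.5, 40.8, 90.2 and 46.2 in the PM samples. Set against all probe sets of the same array, KIT exceeded 62.1%, 21.1% and 31.8% of them in IVM 1, IVM 2 and IVM 3. It exceeded between 85.6% and 95.4% of them in VVM and between 49.8% and 68.0% in PM. IVM 2 and IVM 3 were thus below the middle of their arrays, PM 2 was at it and all VVM arrays were far above it.

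**Figure D1:**
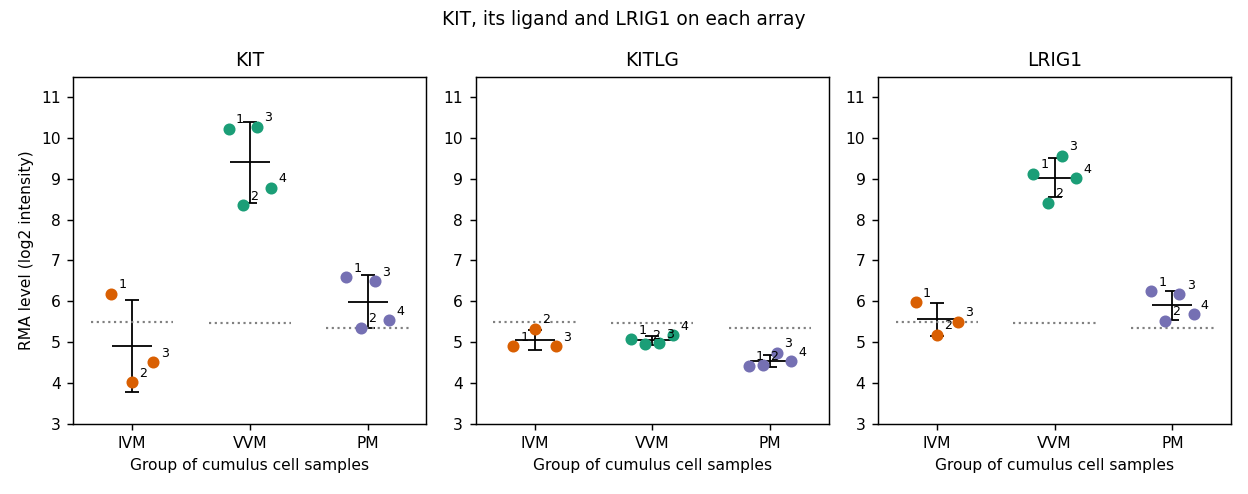
Log2 RMA level of KIT, KITLG and LRIG1 on each array (points, labelled by replicate number) in IVM (n = 3), VVM (n = 4) and PM (n = 4). Bars are the mean and SD and dotted lines the mean of the array medians of the group; the 4 VVM points of KIT, from 8.35 to 10.28, lie above all IVM and PM points, and so do those of LRIG1.

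IVM was compared with VVM to set maturation in culture against maturation in the animal. KIT averaged 4.90 in the 3 IVM samples (SD 1.14), against 9.41 in the 4 VVM samples (SD 0.99). The log2 difference was -4.51 ± 0.60 (SE; 95% interval -5.82 to -3.20), which is 22.8-fold lower in IVM with an interval of 9.20 to 56.5-fold. In limma, a linear model fitted to all probe sets with moderated variances, the Benjamini-Hochberg adjusted p was 0.00115. KIT had the 8th lowest difference of 14132 genes. Of all genes, 16.7% were called in this comparison at an adjusted p under 0.05, and 7.63% of all genes were called lower in IVM. KIT was chosen for description with this difference already known, so its test is not independent evidence.

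The exact two-sided permutation test of KIT alone gave p = 0.0571 for IVM against VVM, the smallest value that 35 splits of 3 and 4 samples allow. With the level of the bacterial hybridization controls as a covariate the difference was -4.27 and its adjusted p 0.0609. Those controls averaged 11.92 in IVM, 11.04 in VVM and 10.09 in PM, so they were in the order PM, VVM, IVM, while KIT was in the order IVM, PM, VVM. Their part in the result was not tested beyond this fit. In every fit that left out 1 array the call was kept. Those differences ran from -5.15 to -4.07 and no adjusted p exceeded 0.00735. The fits without a PM array left the difference at -4.51 and could change only its adjusted p. IVM 2 and IVM 3 stood below their array medians, and signal over background was not analysed here.

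VVM was compared with PM to describe maturation in the animal. KIT averaged 9.41 ± 0.99 in VVM, against 5.99 ± 0.64 in PM (SD, n = 4 each). It was 10.7-fold higher in VVM (log2 difference 3.42 ± 0.55 SE, interval 2.21 to 4.63, limma adjusted p = 0.000897). The fold had an interval of 4.61 to 24.8. The exact permutation p was 0.0286, the smallest that 70 splits allow. KIT ranked 74th from the highest of 14132 genes in this comparison, in which 39.8% of all genes were called and 18% of all were called higher in VVM. The call was kept in every fit that left out 1 array, with differences from 3.13 to 3.77. Without an IVM array the difference stayed at 3.42 and only its adjusted p could change.

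IVM was compared with PM to describe maturation in culture. KIT averaged 4.90 ± 1.14 (SD) in the 3 IVM samples, against 5.99 ± 0.64 (SD) in the 4 PM samples. The difference of -1.09 ± 0.60 (SE, interval -2.40 to 0.22) did not pass the test (limma adjusted p = 0.162, exact permutation p = 0.171). Here 45.9% of all genes were called, and 20.9% of all were called lower in IVM. Without IVM 1 the difference was -1.73 and passed, with an adjusted p of 0.0430. Without IVM 2 the difference was -0.65 (adjusted p = 0.468). With the 3 prime to 5 prime difference of the actin and GAPDH controls as a covariate it was -2.10 (adjusted p = 0.112). That control difference was 4.36 in IVM 1, against 3.68 and 3.67 in the other two IVM samples, so the IVM array with the highest KIT also had the highest 3 prime excess, whose part in the result was not tested further.

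In order of level, KIT ran IVM, PM and VVM, and the neighbours IVM and PM did not differ beyond their spread while VVM and PM did. The spread of KIT within groups was wide. Its pooled within-group SD was 0.92, against a median of 0.24 over genes, and was larger than that of 98.5% of them. Within VVM the arrays formed a higher pair, VVM 1 and VVM 3, and a lower pair, VVM 2 and VVM 4. Within PM the same could be seen for PM 1 and PM 3 against PM 2 and PM 4, at a lower level. Within IVM, IVM 1 and IVM 3 (6.18 and 4.50) were above IVM 2 (4.01).

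**Figure D2:**
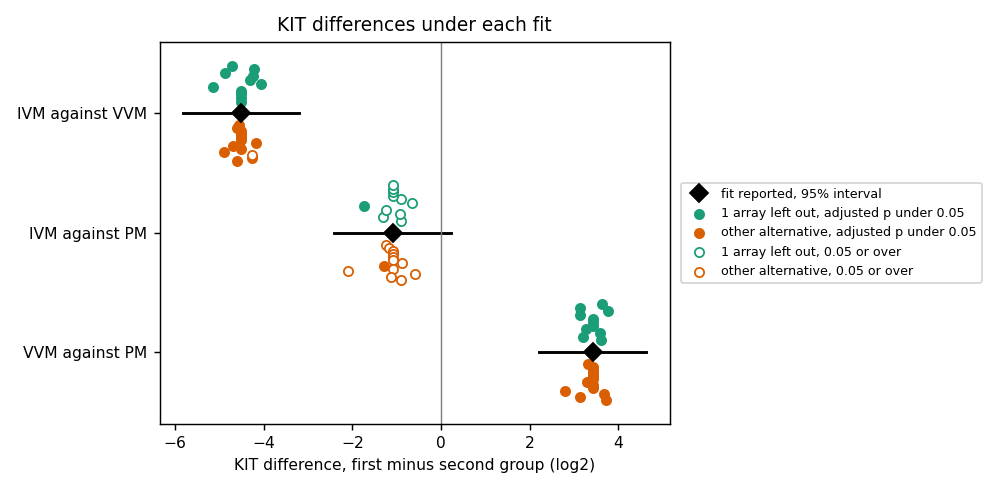
Log2 difference of KIT in the 3 comparisons, as reported with its 95% interval (diamond and line), with 1 array left out (upper points) and under the other alternative settings (lower points); filled points had an adjusted p under 0.05. IVM against VVM stays between -5.15 and -4.07 and VVM against PM between 2.79 and 3.77, while IVM against PM lies between -2.10 and -0.59 and mostly does not pass.

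KITLG, the ligand gene, was not called between IVM and VVM, where KIT was, and rose in VVM against PM, as KIT did. Its level was 4.89, 5.33 and 4.90 in IVM, 5.07, 4.95, 4.97 and 5.17 in VVM, and 4.42, 4.42, 4.74 and 4.53 in PM. All of these values lie below the median of their array. Between IVM and VVM the log2 difference was 0.00 ± 0.14 (SE, limma adjusted p = 0.989), and the groups overlapped. Against PM it was 0.51 ± 0.14 in IVM (adjusted p = 0.0129) and 0.51 ± 0.13 in VVM (adjusted p = 0.0112), with no overlap in either case. The call in IVM against PM was lost without IVM 2 (0.37, adjusted p = 0.0521). These comparisons share the PM samples. Forms of the ligand that stay on the membrane or are released could not be told apart.

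Of the 5 genes listed for the ligand and for proteases known to release KIT or its ligand, 3 were measured. None of the 3 was called by limma between IVM and VVM, where 16.7% of all genes were called (2 at an unadjusted p under 0.05, both lower in IVM). ADAM10, a membrane protease that sheds many surface proteins, was at 10.38, 10.14 and 10.43 in IVM, at 10.42, 10.72, 10.93 and 10.92 in VVM and at 9.15, 9.08, 9.34 and 9.32 in PM. It rose by 1.10 ± 0.14 (SE) in IVM and by 1.53 ± 0.13 in VVM against PM (limma adjusted p = 0.000234 and 2.23e-05), on 1 of its 3 probe sets. MMP9, a secreted gelatinase, rose by 0.61 ± 0.14 in VVM against PM (adjusted p = 0.00609).

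The genes whose levels across the 11 arrays were most like that of KIT were looked up among 8276 genes with a mean log2 of at least 6 and a gene name. The 11 arrays fall into 3 separate groups and share their normalization, so r is given as a description. LRIG1, which in human cells limits signalling of several receptor tyrosine kinases, was the closest, with a Pearson r of 0.970. Its Spearman rho was 1, so LRIG1 put all 11 arrays in the same order as KIT did. After removal of the group means its r with KIT was 0.912.

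LRIG1 was at 5.97, 5.18 and 5.50 in IVM, at 9.12, 8.42, 9.56 and 9.01 in VVM and at 6.24, 5.52, 6.17 and 5.68 in PM. As for KIT, the VVM arrays were apart from all others and IVM and PM overlapped. The log2 difference of LRIG1 was -3.48 ± 0.28 (SE) in IVM against VVM, 3.13 ± 0.26 in VVM against PM and -0.35 ± 0.28 in IVM against PM. As LRIG1 and the genes that follow were picked for their likeness to KIT on these arrays, the differences of the probe sets that showed it are a description, with no test. The LRIG1 values are those of its brightest probe set. The other two LRIG1 probe sets, at group means between 4.93 and 5.99, differed by 0.17 and -0.28 between IVM and VVM with adjusted p of 0.629 and 0.142, and 1 of them rose by 0.53 in VVM against PM (adjusted p = 0.00344).

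After LRIG1 came CDIPT, which makes phosphatidylinositol, the lipid that PI3K acts on (r = 0.967), and PROS1, protein S, an anticoagulant and a ligand of the TAM receptor kinases (r = 0.958). Next were NRP1, a coreceptor of semaphorins and vascular endothelial growth factor (r = 0.955), SOD2, the mitochondrial superoxide dismutase (r = 0.954), and SERPINA3, a serine protease inhibitor (r = 0.954). Their log2 differences of IVM against VVM were -1.61 for CDIPT, -2.32 for PROS1, -1.79 for NRP1, -1.99 for SOD2 and -1.51 for SERPINA3. KIT itself differed by more than any of the 6. These values are those of the brightest probe set of each gene. Between IVM and VVM, 1 of 3 NRP1, 1 of 2 SOD2 and 2 of 5 SERPINA3 probe sets were called in the direction given. CDIPT and PROS1 had 1 probe set each.

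The most opposite patterns were those of AQP11, a water channel (r = -0.980), EVL, a regulator of actin filaments (r = -0.973), MCRIP2 (r = -0.967) and FBL, the fibrillarin of the nucleolus that methylates ribosomal RNA (r = -0.963). AQP11 was at 11.15, 12.16 and 12.46 in IVM, at 9.03, 9.72, 9.37 and 9.87 in VVM and at 11.29, 11.59, 11.29 and 11.84 in PM. Its log2 difference of IVM against VVM was 2.43 ± 0.30 (SE). In all, 51 of the 8276 genes had an r of at least 0.9 with KIT and 75 had one of -0.9 or lower.

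**Figure D3:**
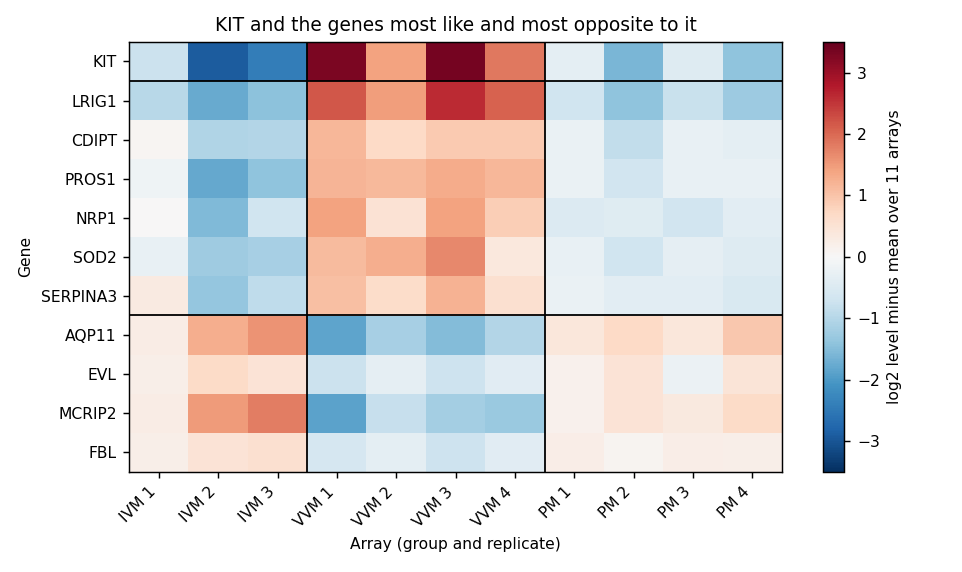
Log2 level minus the gene's mean over the 11 arrays, for KIT, the 6 genes with the highest and the 4 with the lowest Pearson r with it (rows), by array (columns). Red cells fill the VVM columns of the upper 7 genes and blue cells those of the lower 4, with the largest range in KIT.

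Genes around KIT were described from 7 lists naming 111 genes, of which 87 were measured. The lists hold genes through which KIT signals and their negative regulators. They also hold the ligand and releasing proteases, factors of the KIT gene and related receptors. Between IVM and VVM, 18 of the 87 were called (20.7%, against 16.7% of all genes), with 5 higher and 13 lower in IVM, where 9.06% of all genes were higher and 7.63% lower. After quantile normalization was applied again, 8 were higher and 11 lower. The median log2 difference was -0.09, against 0.08 over all genes. Without IVM 2 the count was 10. With the hybridization controls as a covariate it was 2, and with a minimum of 2-fold it was 9. Over the 7 lists together the share of members called is near that of all genes, while single lists ranged from 0% to 36.4%.

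Of 22 measured genes whose products bind the activated receptor (adaptors, PI3K subunits, SRC family kinases), 1 was higher and 7 were lower in IVM than in VVM (36.4% called). Of all genes, 16.7% were called, 9.06% higher and 7.63% lower. SOS2, an exchange factor that loads RAS with GTP, averaged 8.65 ± 0.45 in the 3 IVM samples, against 9.97 ± 0.29 in the 4 VVM samples (SD). It fell by 1.32 ± 0.24 in IVM on the log2 scale (SE, limma adjusted p = 0.00522, 1 of 4 probe sets). PIK3R1, the regulatory PI3K subunit that docks on phosphorylated KIT, was at 8.70, 9.16 and 9.38 in IVM, against 10.45, 10.15, 9.77 and 10.50 in VVM. It fell by 1.14 ± 0.20 (adjusted p = 0.00453, 3 of 4 probe sets). The groups did not overlap for either gene. GAB2, a docking adaptor, fell by 1.11 on the log2 scale. Its call was lost without IVM 2 or without IVM 3, where the differences were between -1.04 and -0.99 and the higher adjusted p was 0.111. SRC fell by 0.81, also lost without IVM 2 (-0.75, adjusted p = 0.0617).

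Further down the PI3K relay, 3 of 18 genes were lower in IVM than in VVM and none was higher by limma (5 lower and 3 higher at an unadjusted p under 0.05). The share called was 16.7%, as of all genes. RICTOR, a core subunit of the kinase complex mTORC2, fell by 1.08 ± 0.24 (SE, limma adjusted p = 0.0164). SGK1, a kinase of the same relay, fell by 1.22 ± 0.26, a call lost without IVM 2 (-1.10, adjusted p = 0.0549). CDKN1B, a cyclin kinase inhibitor and FOXO target, fell by 0.83 ± 0.22, lost without IVM 2, VVM 1, VVM 3 or VVM 4 (-0.86 to -0.61, highest adjusted p = 0.126). In the MAP kinase and STAT relay, 4 of 13 genes were higher and 3 lower in IVM at an unadjusted p under 0.05. By adjusted p, 2 of the 13 were called (15.4%, against 16.7% of all genes), both higher in IVM. They were HRAS, a RAS gene, by 0.94 ± 0.20 and the MAP kinase kinase MAP2K2 by 0.94 ± 0.18.

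Among 16 negative regulators, 3 were lower and 1 was higher in IVM than in VVM (25% called, against 16.7% of all genes). SPRY1, an induced inhibitor of receptor tyrosine kinase signalling, was at 8.21, 7.35 and 7.90 in IVM, at 9.53, 9.89, 10.34 and 10.04 in VVM and at 6.48, 6.86, 7.07 and 6.80 in PM. None of the 3 groups overlapped another. SPRY1 fell by 2.13 ± 0.23 in IVM against VVM (SE, limma adjusted p = 0.000443), and rose against PM by 1.02 ± 0.23 in IVM (0.00564) and by 3.15 ± 0.21 in VVM (7.38e-06). Its order PM, IVM, VVM thus differed from that of KIT.

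SPRY2, a related inhibitor, was at 5.95, 4.79 and 4.73 in IVM, at 7.06, 7.41, 7.27 and 6.33 in VVM and at 6.99, 6.43, 7.10 and 7.15 in PM. It fell in IVM by 1.86 ± 0.33 against VVM (SE, limma adjusted p = 0.00485) and fell by 1.76 ± 0.33 against PM (0.00193), on 1 of 2 probe sets. RASA1, a GTPase activator that switches RAS off, also fell in IVM against VVM (limma adjusted p = 0.00278) and rose by 0.58 in VVM against PM. SOCS1, which binds KIT and dampens its signal in blood cells, rose by 0.72 ± 0.14 in IVM against VVM, on 1 of 5 probe sets.

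**Figure D4:**
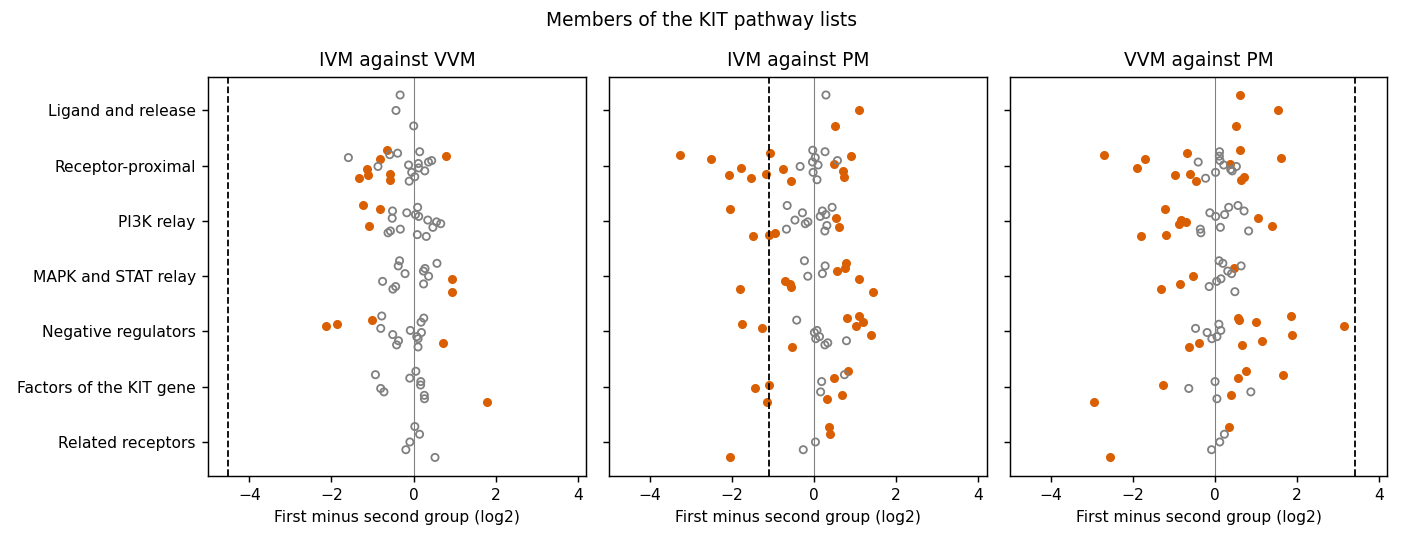
Log2 difference of each measured member of the 7 KIT pathway lists (points, by list) in the 3 comparisons, first group minus second. Filled points had an adjusted p under 0.05, and the dashed line marks KIT (-4.51, -1.09 and 3.42), which lies outside the range of all members in the left and right panels.

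Against PM, large shares of the pathway genes were called in both matured groups, as of all genes. In IVM against PM 24 rose and 24 fell (55.2% of 87, against 45.9% of all genes, 25% higher and 20.9% lower). With each array centred on its median 18 rose and 28 fell, and the median difference over all genes was -0.03, against 0.12 without centring. With the 3 prime to 5 prime covariate 22 were called and with the hybridization controls 0 in limma (15 at an unadjusted p under 0.05). In VVM against PM 24 rose and 21 fell (51.7%, against 39.8% of all genes, 18% higher and 21.8% lower), and after centring, which moved the median over all genes to -0.07 against 0.04 without it, 16 rose and 21 fell. Without PM 1, VVM 2 and VVM 3, which stood apart by their oocyte or leukocyte transcripts, 26 were called, and with the leukocyte genes as a covariate 23. The 2 comparisons share the PM samples, so their values are given side by side.

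By role, 4 of the 22 receptor-binding genes rose and 9 fell in IVM against PM (25% and 20.9% of all genes), and 5 rose and 7 fell in VVM against PM (18% and 21.8% of all genes). Of the 18 PI3K relay genes 2 rose and 4 fell in IVM, and 2 rose and 6 fell in VVM. Of the 13 MAP kinase and STAT genes 5 rose and 4 fell in IVM, and 1 rose and 3 fell in VVM. Of the 16 negative regulators 5 rose and 3 fell in IVM, and 8 rose and 2 fell in VVM.

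FER, a cytoplasmic tyrosine kinase that KIT activates in mast cells, was at 7.46, 7.45 and 8.05 in IVM, at 7.95, 9.06, 8.01 and 7.92 in VVM and at 11.09, 10.92, 10.89 and 10.82 in PM. It fell against PM by 3.27 ± 0.26 in IVM (SE, limma adjusted p = 1.47e-05) and fell by 2.70 ± 0.24 in VVM (2.61e-05). SRC fell by 2.52 ± 0.18 in IVM and fell by 1.71 ± 0.17 in VVM, on 1 of 4 probe sets. PIK3R3, a regulatory PI3K subunit, fell by 1.77 ± 0.29 in IVM and fell by 1.90 ± 0.27 in VVM, on 1 of 3. Of the kinases of the PI3K relay, AKT1 fell by 1.50 ± 0.34 in IVM and fell by 1.81 ± 0.32 in VVM, and AKT2 fell by 1.10 ± 0.13 in IVM and fell by 1.19 ± 0.12 in VVM (1 of 4 probe sets). The RAS gene NRAS fell by 1.81 ± 0.18 in IVM and fell by 1.31 ± 0.17 in VVM, whereas HRAS rose by 1.43 ± 0.20 in IVM.

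Of the negative regulators, SH2B3 (LNK), an adaptor that restrains KIT in blood cells, was at 5.76, 5.58 and 6.09 in IVM, at 6.42, 5.71, 6.91 and 6.22 in VVM and at 4.55, 4.59, 4.29 and 4.31 in PM. It rose against PM by 1.37 ± 0.24 in IVM (SE, limma adjusted p = 0.00118) and by 1.88 ± 0.22 in VVM (0.000114). PRKCA, a protein kinase C that phosphorylates KIT on serine and lowers its kinase activity, rose by 1.09 ± 0.25 in IVM and by 1.86 ± 0.23 in VVM. LYN, a SRC family kinase, rose by 1.61 ± 0.54 in VVM against PM with overlapping groups. It stood at 7.14 and 7.61 in VVM 2 and VVM 3, against 5.09 and 4.91 in VVM 1 and VVM 4, and with the leukocyte genes as a covariate its difference was -0.39. Its call was lost without any 1 of 8 arrays, all but PM 1, VVM 1 and VVM 4, and the highest adjusted p was 0.116.

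Transcription factors known to bind or drive the KIT gene in other cell types were measured for 10 of 11 listed. Between IVM and VVM 1 was called, where 16.7% of all genes were. Against PM 4 rose and 3 fell in IVM (45.9% of all genes called), and 4 rose and 2 fell in VVM (39.8%). MITF, which drives KIT in mast cells and melanocytes, was at 9.80, 10.14 and 10.59 in IVM, at 8.46, 9.02, 8.45 and 7.60 in VVM and at 11.08, 11.55, 11.32 and 11.39 in PM. It was lowest in VVM, where KIT was highest. MITF was higher in IVM than in VVM by 1.79 ± 0.29 (SE, limma adjusted p = 0.00304, 1 of 2 probe sets) and fell against PM by 1.16 ± 0.29 in IVM (0.00872) and fell by 2.95 ± 0.27 in VVM (2.6e-05). RUNX1, a blood cell factor also active in ovulating follicles, rose by 1.67 ± 0.36 in VVM against PM (0.00498, 4 of 7 probe sets). MYB, at 4.12, 4.49 and 3.94 in IVM, at 4.15, 4.18, 4.01 and 3.70 in VVM and at 5.78, 5.01, 4.64 and 5.70 in PM, was below the array medians in IVM and VVM and fell in both against PM (-1.10 and -1.27).

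Of the 7 receptors most related to KIT, 5 were measured and limma called none between IVM and VVM (0 also at an unadjusted p under 0.05). Of all genes, 16.7% were called there. CSF1R, the receptor of colony stimulating factor 1, was at 7.50, 7.78 and 8.88 in IVM, at 6.60, 8.28, 8.75 and 6.49 in VVM and at 10.21, 10.11, 10.11 and 9.95 in PM. It fell against PM by 2.04 ± 0.52 in IVM (SE, limma adjusted p = 0.00999) and fell by 2.57 ± 0.48 in VVM (0.00225). KDR, FLT1 and FLT3 had group means between 3.58 and 5.01, all below the array medians, and FLT4 between 5.99 and 6.35. Small rises of FLT1 in IVM against PM (0.38) and of FLT4 in IVM (0.36) and VVM (0.33) against PM were each lost without any 1 of 8, 5 and 7 arrays, and the highest adjusted p was 0.146.

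Genes next to KIT on chromosome 5 were also described. The 10 nearest named protein-coding genes on each side were taken from the RefSeq order, and 13 of the 20 were measured. Between IVM and VVM 1 was called higher and 3 were called lower in IVM, where 16.7% of all genes were called. The 3 lower ones were TMEM165 (-1.31), RASL11B (-1.20) and CHIC2 (-0.76), in the direction of KIT, which differed by -4.51. In IVM against PM 2 were called higher and 3 lower (45.9% of all genes), with RASL11B at -2.66 and TMEM165 at -1.19, beside -1.09 for KIT, which was not called. In VVM against PM 1 was called higher and 2 lower (39.8% of all genes), with differences from -1.46 (RASL11B) to 0.47 (GSX2), beside 3.42 for KIT. KDR, the nearest measured neighbour, had means of 3.68 in IVM, 3.76 in VVM and 3.64 in PM.

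Markers of cell types that carry KIT elsewhere, and of blood and vessel cells, were set beside it. All values in the deposited table are above 0, so a listed level does not by itself show that a marker was detected. Of 17 oocyte markers 13 were measured, and the mean log2 level of the list was 5.23 to 5.42 in IVM, 5.27 to 5.64 in VVM and 5.17 to 7.27 in PM. Their summed intensity was 1014 to 1098 in IVM, 956 to 1390 in VVM and 955 to 3291 in PM. The high value was that of PM 1, where ZP3, a zona pellucida protein, was at 9.57 and NLRP5, a maternal effect gene of the oocyte, at 8.45, against at most 6.30 and 3.25 in the other PM samples. KIT in PM 1 (6.59) was close to that in PM 3 (6.50), where ZP3 was at 6.07 and NLRP5 at 3.25. Without PM 1 the KIT difference was 3.62 in VVM against PM and -0.89 in IVM against PM (limma adjusted p = 0.00198 and 0.303). In VVM, 5 of the 13 were above the array median on all 4 arrays, among them ZP4 at 8.72 to 9.72, ZP1 at 6.60 to 7.22 and ZP3 at 6.30 to 6.99. ZAR1, NLRP5 and BMP15 were at most at 5.01, 4.84 and 4.19 there, below the array medians. The same number, 5, was above the median on all arrays in IVM and in PM. By mean level, 6 of the 13 were above the array median, as were 10275 of all 14132 genes. The highest ZAR1 and NLRP5 levels in VVM, 5.01 and 4.84, were those of VVM 3. That array had the highest oocyte mean in VVM (5.64) and the highest KIT (10.28). VVM 1, with KIT at 10.23, had an oocyte mean of 5.29. The part of oocyte RNA in the KIT result was not tested beyond the fits given. SOHLH2, a germ cell factor that drives Kit in mouse germ cells, was at 5.96, 5.39 and 5.27 in IVM, at 6.27, 6.12, 6.03 and 6.07 in VVM and at 8.81, 6.45, 7.60 and 6.75 in PM. It fell by 1.86 in IVM against PM, and its 4 PM arrays were in the same order as those of KIT. In VVM against PM, where KIT rose, SOHLH2 fell by 1.28, a call lost without any 1 of 5 arrays (PM 3 and the 4 VVM arrays, highest adjusted p = 0.0768). Other called oocyte markers went the other way. ZP1 and NOBOX rose by 0.93 and 0.74 in IVM against PM, where 25% of all genes were called higher. NOBOX rose by 0.34 in VVM against PM (18% of all genes), and ZP1 was higher by 0.65 in IVM against VVM (9.06%). These last 2 calls were lost without any 1 of 6 and 7 arrays.

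Of 11 mast cell markers 7 were measured, and their mean level was 5.04 to 5.28 in IVM, 5.05 to 5.12 in VVM and 4.88 to 4.93 in PM, with summed intensities of 375 to 429 in IVM, 337 to 361 in VVM and 300 to 325 in PM. Limma called none between IVM and VVM, where 16.7% of all genes were called (2 at an unadjusted p under 0.05, both higher in IVM). Against PM, 4 of the 7 rose in IVM, where 25% of all genes were called higher, and 2 rose in VVM, where 18% were. Those 2 were MS4A2, by 0.42, and GATA2, by 0.40 (limma adjusted p = 0.0382 and 0.0463). Both VVM calls were lost without any 1 of the 8 VVM and PM arrays (highest adjusted p = 0.106 for MS4A2 and 0.102 for GATA2), except that MS4A2 kept its call without VVM 1. GATA1, GATA2 and SIGLEC6 were above the array medians on all arrays, in every group. CPA3, a mast cell protease, was between 3.75 and 4.14 and FCER1A, a chain of the IgE receptor, between 2.89 and 3.40 on all 11 arrays, below every array median. GATA2, a factor of mast cells and progenitors, rose by 0.67 in IVM against PM.

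Of 12 theca and stroma markers 8 were measured. Their mean level was 6.26 to 6.81 in IVM, 6.23 to 6.77 in VVM and 5.76 to 5.89 in PM, with summed intensities of 813 to 1638 in IVM, 709 to 1731 in VVM and 503 to 606 in PM. In VVM 1 to VVM 4 the means were 6.59, 6.23, 6.77 and 6.31, which is the order of KIT on these arrays, but IVM 1, with the highest mean of all at 6.81, had KIT at 6.18. CYP17A1, which makes theca androgens, was between 4.10 and 5.04 on all arrays, below every array median. DCN, a matrix proteoglycan of stroma, rose by 2.18 ± 0.61 in IVM and by 2.14 ± 0.57 in VVM against PM, the first lost without IVM 1 (1.74, adjusted p = 0.0717). PTCH1, the hedgehog receptor, was at 5.43, 4.71 and 4.64 in IVM and at 6.82, 5.89, 7.39 and 5.54 in VVM. In PM it was at 5.79, 4.98, 5.58 and 5.82. Its group means stood in the order of KIT, and its higher VVM arrays, VVM 1 and VVM 3, were also those of KIT. Its highest PM array was PM 4, where KIT was at 5.53. PTCH1 fell by 1.48 ± 0.40 in IVM against VVM. That call was lost without PM 3, IVM 2, IVM 3, VVM 1 or VVM 3 (-1.48 to -1.16, highest adjusted p = 0.125). It was the 1 call of the 8 markers between IVM and VVM (16.7% of all genes). Against PM, 5 of the 8 were called higher in IVM and 3 in VVM (25% and 18% of all genes), and 0 were called lower. The part of theca or stroma cells in the KIT result was not tested.

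Leukocyte markers, of which 9 of 13 were measured, had mean levels of 5.47 to 5.55 in IVM, 5.59 to 7.58 in VVM and 5.44 to 5.66 in PM. Their summed intensity was 625 to 847 in IVM, 527 to 3131 in VVM and 1324 to 1542 in PM, of which CSF1R alone made 989.8 to 1182 in PM. Of the 9, 2 were called lower in IVM against VVM, where 7.63% of all genes were called lower. In VVM against PM 5 were called higher and 2 lower, with a median difference of 1.64, where 39.8% of all genes were called. LYZ, lysozyme, was at 5.10, 7.62, 9.51 and 4.79 in VVM 1 to VVM 4, while KIT was at 10.23, 8.35, 10.28 and 8.78. In IVM, LYZ was at 3.32 to 3.72 and in PM at 3.36 to 4.10, so all 4 VVM arrays were above these. The mean of PTPRC, CD14, TYROBP and LYZ was 5.36 to 8.70 in VVM, 4.50 to 4.70 in IVM and 4.23 to 4.56 in PM. Within VVM, KIT was about as high in VVM 1, with LYZ at 5.10, as in VVM 3, with LYZ at 9.51. With a covariate built from PTPRC, CD14, TYROBP and LYZ, KIT differed by -4.26 in IVM against VVM and by 3.14 in VVM against PM (limma adjusted p = 0.0204 and 0.0428). Without PM 1, VVM 2 and VVM 3 the differences were -4.61 and 3.71 (adjusted p = 0.00825 and 0.0082).

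Of 8 blood progenitor markers 3 were measured, with a mean level of 5.42 to 5.55 in IVM, 5.05 to 5.90 in VVM and 4.91 to 4.99 in PM. Their summed intensity was 195 to 212 in IVM, 143 to 186 in VVM and 120.2 to 133 in PM. GFI1B, a factor of progenitors, rose by 0.84 in IVM and by 0.47 in VVM against PM. AVP rose by 0.64 in IVM against PM. It was also higher by 0.52 in IVM against VVM (limma adjusted p = 0.0169), a call lost without IVM 2. Of all genes, 25% were called higher in IVM against PM, 18% in VVM against PM and 9.06% in IVM against VVM. LMO2 was not called. It was at 4.30 in VVM 2 and 5.58 in VVM 3, and at most at 3.56 on the other arrays. Of 7 erythroid markers 3 were measured, with a mean level of 5.67 to 6.04 in IVM, 6.44 to 7.16 in VVM and 6.02 to 6.73 in PM. Their summed intensity was 189 to 238 in IVM, 412 to 1109.7 in VVM and 261 to 497 in PM. HBB, beta globin, was at 6.89, 6.47 and 6.25 in IVM, at 9.57, 9.89, 8.15 and 9.59 in VVM and at 7.65, 7.23, 7.43 and 7.81 in PM. Its groups did not overlap and stood in the order of KIT, IVM lowest and VVM highest. Within VVM, VVM 3 had the lowest HBB and the highest KIT, and VVM 2 the highest HBB and the lowest KIT. HBB was the 1 erythroid marker called lower in IVM against VVM (7.63% of all genes) and the 1 called higher in VVM against PM (18%). Calls of HBB and VWF were not recomputed with arrays left out. Of 9 endothelial markers 8 were measured, with a mean level of 5.54 to 5.69 in IVM, 5.46 to 6.16 in VVM and 5.26 to 5.34 in PM. Their summed intensity was 452 to 489 in IVM, 422 to 1195 in VVM and 351 to 379 in PM. Limma called 1 of them lower in IVM against VVM (7.63% of all genes) and 3 higher in VVM against PM (18% of all genes). The marker called in both was VWF, von Willebrand factor, at 6.65, 6.28 and 6.02 in IVM, at 8.38, 7.88, 9.52 and 6.54 in VVM and at 5.81, 5.75, 5.96 and 5.52 in PM. VWF was thus higher in VVM 1 to VVM 3 than on all IVM and PM arrays, while VVM 4 overlapped with IVM. The part of blood and vessel cells in the KIT result was not tested beyond the fits given.

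**Figure D5:**
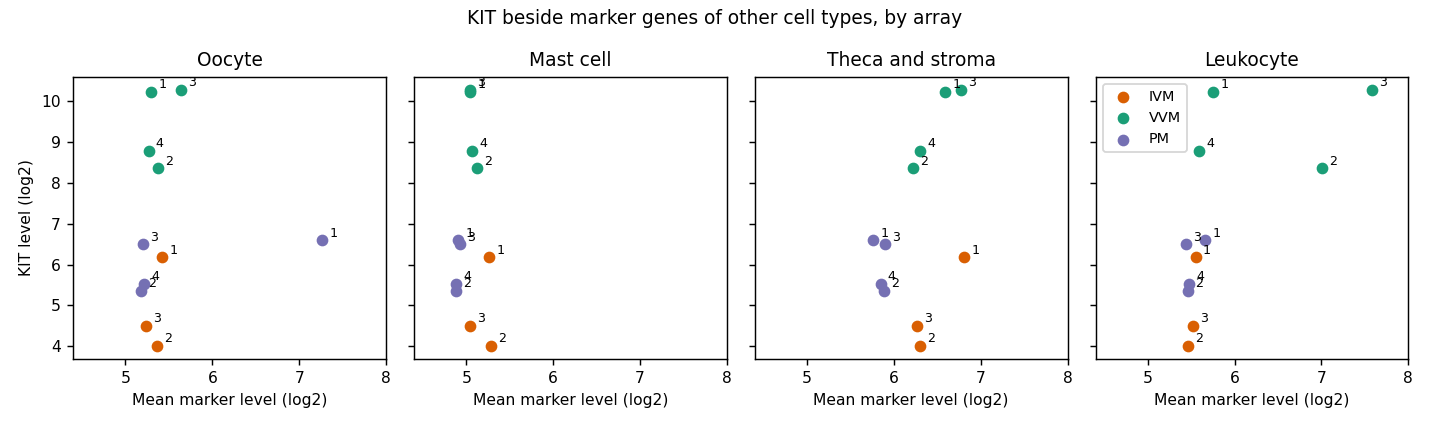
KIT level (vertical axis, log2) against the mean log2 level of the measured oocyte, mast cell, theca and stroma, and leukocyte markers (horizontal axes) on each array, labelled by replicate number. PM 1 is apart in the oocyte panel (7.27) with KIT at 6.59, and VVM 2 and VVM 3 in the leukocyte panel (up to 7.58) with KIT at 8.35 and 10.28.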

How the data were processed

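The deposited table holds 52865 probe sets with 1 intensity per array for 11 arrays. The authors made these intensity values with RMA in Affymetrix Expression Console, per the submitters' processing notes, which give no versions or settings. Values were above 0 and linear, so log2 was taken with no pseudocount. The 99 control probe sets were left out of tests. Of a gene's probe sets that name only it, the brightest on average stood for it. Of 24956 probe sets with 1 symbol (27449 had none, 361 several), 24616 matched RefSeq by gene identifier. Group differences were estimated with limma 3.58.1 (R 4.3.3), using 3 group means with 8 residual and 3.30 prior degrees of freedom, two-sided and Benjamini-Hochberg adjusted over 52766 probe sets per comparison, with a call at an adjusted p under 0.05. The fit was tested on simulated data. Alternatives changed the scaling, filters, prior, weights, covariates, block and arrays included.

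KIT, the lists and the tests were chosen with earlier results of these data known. Named genes were KIT, KITLG, up to 4 called members per list and comparison, the measured related receptors, called markers of cell types that carry KIT, and the 10 genes most like or opposite to it among those with a mean log2 of at least 6 (placeholder names left out). Not all of them are described, and the chromosomal neighbours, HBB, VWF, LYZ and marker genes without a call were named after their values were seen. Residuals of arrays sharing a replicate number had correlations of -0.107 to 0.101, so the reported fits used no pairing. KIT itself was higher in replicates 1 and 3 than in the others within each group. A fit with the replicate number as a block is given below.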

Additional observations from a re-analysis of the deposited data

Results flagged for a closer look

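In groups of 4 samples, the named genes were searched for an array far from the other 3 (a gap to the nearest, relative to the group's range, above Dixon's 95% critical value). Of 132 gene and group combinations 11 were found, where chance gives about 1 in 20. KIT, KITLG and LRIG1 were not among them. In VVM, MMP9 was low at 5.71 in VVM 4 (others 6.16 to 6.23), GAB2 high at 8.80 in VVM 1 (7.53 to 7.75), FER high at 9.06 in VVM 2 (7.92 to 8.01), and FLT3 and COL1A1 high at 5.64 and 5.38 in VVM 3 (4.61 to 4.77 and 4.99 to 5.04). In PM, LYN was high at 5.33, SPRY4 high at 5.87 and SGK1 low at 9.93 in PM 1 (4.25 to 4.42, 4.71 to 4.86 and 10.48 to 10.58), the array with oocyte transcripts. In PM 2, RICTOR, CDIPT and PROS1 were low at 8.23, 11.23 and 10.22 (8.32 to 8.33, 11.75 to 11.85 and 10.62 to 10.64). CDIPT and PROS1 are among the genes most like KIT, and PM 2 was also the PM array with the lowest KIT.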

How the results depend on the processing

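For KIT, 23 of 25 alternatives left the call of IVM against VVM in place. Exceptions were the fit with a hybridization control covariate (-4.27, adjusted p = 0.0609) and the exact permutation test (-4.51, p = 0.0571). That test could give no smaller p. The probe set filters, the changed prior, the fit of only the 2 groups and the fits without a PM array left the difference at -4.51. They could change only its adjusted p. The call of VVM against PM was kept in all 25, with differences from 2.79 to 3.77. The difference of IVM against PM passed with the replicate number as a block (-1.27, adjusted p = 0.0154) and without IVM 1. Leaving out 1 array gave -5.15 to -4.07, -1.73 to -0.65 and 3.13 to 3.77 for the 3 comparisons. The block changed no other KIT call and gave 16, 46 and 40 pathway calls.

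The pathway counts of 18, 48 and 45 (IVM against VVM, IVM against PM, VVM against PM) ranged from 10 to 22, 42 to 49 and 35 to 44 with 1 array left out. In limma they were 2, 0 and 18 with the hybridization covariate (22, 15 and 35 at an unadjusted p under 0.05) and 9, 24 and 20 with a 2-fold minimum. The 3 prime to 5 prime covariate gave 22 for IVM against PM. The leukocyte covariate gave 23 and the fit without PM 1, VVM 2 and VVM 3 gave 26 for VVM against PM. The cause was not tested.

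Of 116 called differences of named genes other than KIT, 86 kept their call whichever array was left out. The KITLG difference of IVM against VVM, near 0, changed sign after centring (-0.036), quantile normalization (-0.045), array weights (-0.0063), with the hybridization (-0.075) or leukocyte covariate (-0.12) and without PM 1, VVM 2 and VVM 3 (-0.077). With 1 array left out it ran from -0.14 to 0.078. With the hybridization covariate, IVM against PM changed sign for PIK3R1 (0.22), TFE3 (-0.48), FLT1 (-0.073), MS4A2 (-0.086), TAGLN (-1.30) and NRP1 (0.29). With the leukocyte covariate, VVM against PM changed sign for LYN (-0.39) and SOCS3 (-0.063). With 1 array left out, IVM against PM ran from -0.64 to 0.13 for NRP1 and from -0.74 to 0.10 for SERPINA3, which also changed sign after quantile normalization (0.043). The number of arrays limits the precision.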
